A study of Homo sapiens with 10 samples.

Results

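The HIF target genes are a set of 31 human genes that hypoxia-inducible factors are known to induce, followed here through 10 long-read libraries of 2 cell lines. Members were found by matching the Ensembl gene of each listed edit to 31 fixed symbols; the rule uses no measured value, although the list was drawn up with earlier results of these data known. The libraries together listed 10643 genes. In MDA-MB-231 breast cancer cells, which are triple-negative, 28 members were listed in at least 1 library, and in HEK293T, an embryonic kidney line with the SV40 large T antigen, 19 were. VEGFA, the angiogenic growth factor, and ZNF395, a zinc finger protein, were listed in no library.

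Every cell carried a doxycycline-inducible editor. Ribo-STAMP joins the RPS2 protein of the small ribosomal subunit to APOBEC1, an enzyme that deaminates cytidine, so C-to-U changes accumulate on mRNA that ribosomes read, and full-length reads show the mRNA and its edits at once. The tested MDA-MB-231 cells had Ribo-STAMP induced by 1 ug/mL doxycycline for 48 h together with 100 uM CoCl2 for 48 h (n = 2), and their controls, labelled NT, had the same induction without CoCl2 (n = 2). HEK293T cells had 1 ug/mL doxycycline for 72 h and expressed Ribo-STAMP (n = 3) or the unfused deaminase, APOBEC1-only (n = 3). The 2 lines were prepared with different PacBio kits, so they were not set against each other. The labels do not say that replicates came from separate cultures, so p-values measure the spread between these libraries, which may be technical. No group received low oxygen, and CoCl2 is a chemical mimic with effects of its own on metal and redox systems.

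Hypoxia-inducible factors are pairs of an oxygen-labile alpha subunit and the stable subunit ARNT. With oxygen present, prolyl hydroxylases of the EGLN family mark the alpha subunit for VHL and the proteasome, and cobalt blocks those iron enzymes, so the factor accumulates without a lack of oxygen. The factor binds short motifs with the core ACGTG or GCGTG and raises genes for glucose import, glycolysis, glycogen storage, pH control, vessel growth and lipid storage, along with genes that feed back on the pathway.

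The files list a coding position only where at least 1 read was edited, as edited and covering reads, so a member that is not listed can be present and unedited. Coverage of a gene was summed over its isoforms listed in all 4 MDA-MB-231 libraries. For each isoform it was the median of covering reads over the positions listed in that library. It was scaled by the trimmed mean of M-values (TMM), and served as the measure of mRNA level. The listed positions differ between libraries, and the part of their place in coverage was not tested. The member GBE1 had 55 covering reads at coding base 2004 in CoCl2 replicate 1, against a median of 35 over its listed positions. In a bulk culture fewer cells with an mRNA and less of it per cell cannot be told apart. The CoCl2 libraries listed 172625 and 155572 edited reads and the NT libraries 177069 and 158721, on 1121190 to 1205820 covering reads. All 10 MDA-MB-231 marker genes were listed in each of that line's libraries and 0 to 2 of them in each HEK293T library. An isoform had to be edited in every library to be compared, and 18 of the 31 members passed that and the minimum mean coverage of 10 reads. 24 and 23 members were listed in the CoCl2 libraries, and 23 and 23 in the NT libraries.

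Across all 5681 genes tested, the coverage change ran with transcript length, the spliced length in GENCODE 29. The CoCl2 over NT change fell by 0.52 (log2) for each doubling of length, and Spearman's rho across 5639 genes with a length was -0.64, a description over genes that share the same libraries. Between replicates the slope was 0.01 for CoCl2 replicate 2 over 1 and -0.29 for NT replicate 2 over 1, so the NT libraries differed from each other along the same axis. Each member is therefore given as measured and again after the trend with length was removed from each library. The part of length in the measured changes was not tested beyond that.

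**Figure D1:**
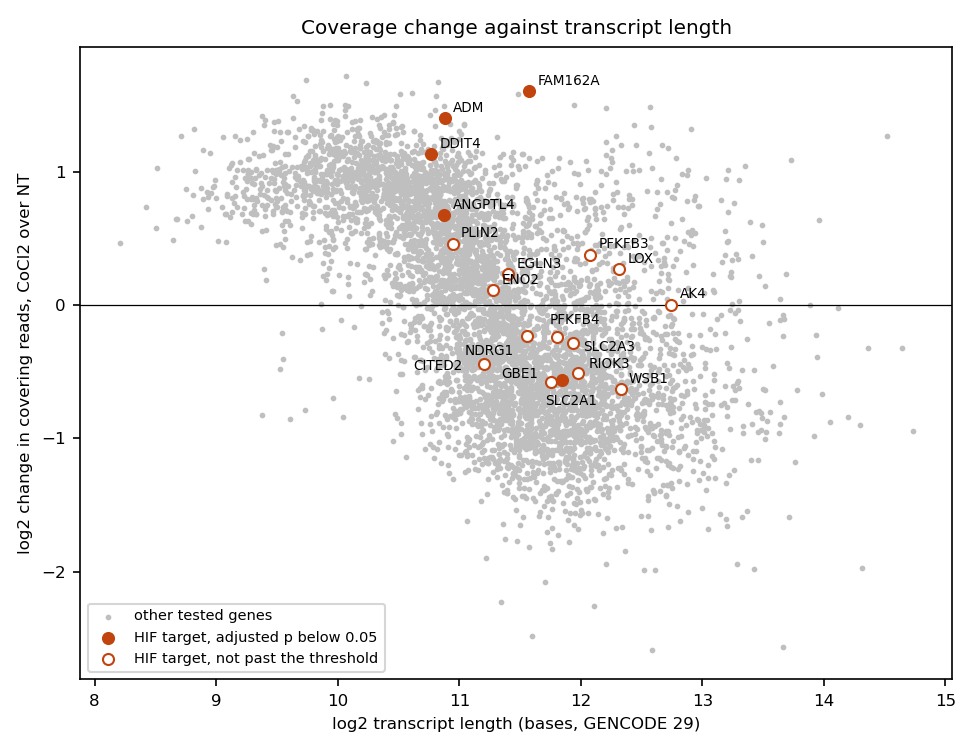
Log2 change in TMM-scaled covering reads (CoCl2 over NT, vertical axis) against the log2 of transcript length (horizontal axis) for the tested genes (grey) and the 18 tested HIF targets, filled where limma's adjusted p was below 0.05. The grey cloud falls from left to right, and FAM162A lies above most genes of its length.

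Of the 18 tested HIF targets, 4 rose in CoCl2 cells (ADM, DDIT4, FAM162A and ANGPTL4) and 1 fell (SLC2A1), by limma with Benjamini-Hochberg adjustment over all genes and a threshold of 0.05. Of all genes tested, 25.7% rose and 19.1% fell by the same rule, so the members' count is near the background. The median change was 0.06 (log2) over the members and -0.02 over all genes. With the length trend removed, 4 members rose (FAM162A, ADM, PFKFB3 and DDIT4) and 0 fell, against 8.33% of genes that rose and 6.21% that fell. In that fit the same 4 and 0 members passed an unadjusted p of 0.05, beside 901 genes higher and 843 lower of 5639. The median was then 0.29 over the members, 14 of them positive, and 0.01 over all genes. ADM, DDIT4 and FAM162A thus passed in both fits, ANGPTL4 and SLC2A1 only as measured, and PFKFB3 only with the trend removed. FAM162A, with 9 and 10 covering reads in NT cells, met the minimum mean coverage through its CoCl2 libraries. Nothing is read from its calls.

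These calls rested on both CoCl2 libraries. Without CoCl2 replicate 1 the adjusted p of the 4 measured rises ran from 0.139 for ADM to 0.235 for ANGPTL4, and without CoCl2 replicate 2 from 0.146 for ADM and FAM162A to 0.488 for ANGPTL4, with the lone CoCl2 library assumed to vary like the NT libraries. SLC2A1 stood at 0.472 and 0.292, and with the length trend removed FAM162A alone passed without CoCl2 replicate 2 (adjusted p = 0.0279). Scaling by total covering reads instead of TMM moved the median of all genes by -0.21 (log2), with 943 genes higher and 1653 lower against 1461 and 1084, and it left 3 members higher (ADM, DDIT4 and FAM162A) and 2 lower (SLC2A1 and CITED2).

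**Figure D2:**
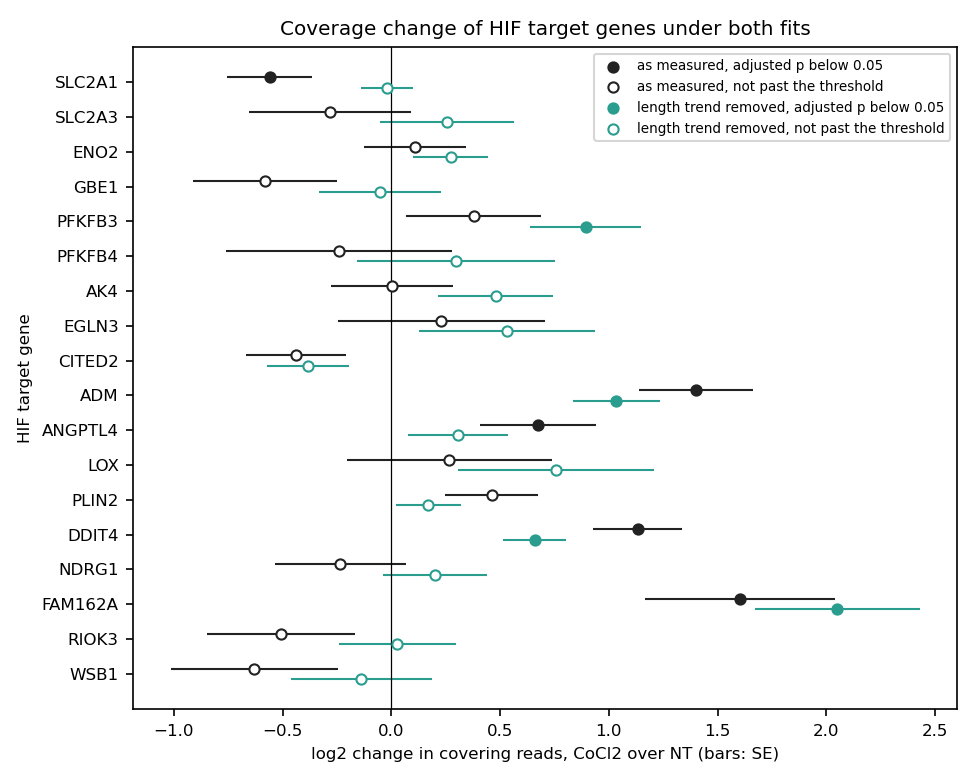
Log2 change in covering reads (horizontal axis, CoCl2 over NT) of the 18 tested HIF targets, as measured (black) and with the length trend removed (green), with SE bars from limma and filled points where the adjusted p was below 0.05. FAM162A, ADM and DDIT4 are filled in both colours, and SLC2A1 moves to -0.02 once the trend is removed.

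Among the stress, redox and mitochondrial members, FAM162A, a mitochondrial protein first described as hypoxia-responsive and proapoptotic, had 34.2 and 24.7 TMM-scaled covering reads in CoCl2 cells, against 8.38 and 9.44 in NT cells. Both CoCl2 libraries lay above both NT libraries, a change of 1.60 ± 0.44 (log2, SE), adjusted p = 0.00482. Its 3052-base transcript stands at the percentile 63.2 of tested genes by length, and with the trend removed the change was 2.05 ± 0.38, adjusted p = 0.00818. Before scaling FAM162A had 9 and 10 covering reads in NT cells, which alone would not reach the minimum mean of 10. It entered the fits through its CoCl2 libraries, so nothing is read from its p in either fit. DDIT4 (REDD1), an inhibitor of the growth kinase mTORC1 that the ATF4 stress pathway also induces, had 787 and 886 in CoCl2 cells, against 375 and 385 in NT cells. The groups were well apart in DDIT4, with a change of 1.13 ± 0.20 (log2, SE), adjusted p = 0.000446, and 0.66 ± 0.15, adjusted p = 0.0162 with the trend removed. NDRG1, a stress-responsive protein linked to differentiation, had 49.7 and 47.2 in CoCl2 cells, against 70.7 and 46.3 in NT cells, and its groups overlapped, since NT replicate 2 lay below both CoCl2 libraries.

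Of the secreted members, ADM (adrenomedullin), a peptide that widens vessels, had 150.3 and 149 TMM-scaled covering reads in CoCl2 cells, against 48.4 and 65.1 in NT cells. The CoCl2 libraries agreed closely and lay above both NT libraries, a change of 1.40 ± 0.26 (log2, SE), adjusted p = 0.000578, or 1.03 ± 0.20, adjusted p = 0.00995 with the trend removed. ANGPTL4, an inhibitor of lipoprotein lipase, had 93.3 and 122 in CoCl2 cells, against 70.7 and 62.3 in NT cells, again without overlap. It rose by 0.68 ± 0.27 (log2, SE), adjusted p = 0.0398, and its change with the trend removed was 0.31 ± 0.23, adjusted p = 0.394. LOX, the oxidase that crosslinks collagen and elastin, had 16.6 and 14.3 in CoCl2 cells, against 9.31 and 17 in NT cells, with the CoCl2 libraries between the NT libraries.

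The promoters of the 3 genes that passed in both fits are shown because they hold the core motif. Each is the 250 bases before the gene's start from RefSeq (GRCh38.p14), 5′ to 3′ on the gene's plus strand, with ACGTG and GCGTG in capitals, in either strand's reading. The ADM window is chr11:10304823-10305072, the DDIT4 window chr10:72273674-72273923 and the FAM162A window chr3:122383932-122384181. Motifs begin 101 bases before the start of ADM, 219, 125 and 53 bases before that of DDIT4, and 92, 84, 75 and 36 bases before that of FAM162A.
ADM: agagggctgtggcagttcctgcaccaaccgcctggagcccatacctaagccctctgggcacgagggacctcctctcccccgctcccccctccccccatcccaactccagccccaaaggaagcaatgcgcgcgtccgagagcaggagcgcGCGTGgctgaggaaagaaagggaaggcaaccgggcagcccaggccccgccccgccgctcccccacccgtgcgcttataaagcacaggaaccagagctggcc
DDIT4: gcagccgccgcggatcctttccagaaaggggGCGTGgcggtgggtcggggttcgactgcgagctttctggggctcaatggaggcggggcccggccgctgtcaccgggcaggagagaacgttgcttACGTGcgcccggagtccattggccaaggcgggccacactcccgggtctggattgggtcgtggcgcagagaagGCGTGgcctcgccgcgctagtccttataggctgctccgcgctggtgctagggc
FAM162A: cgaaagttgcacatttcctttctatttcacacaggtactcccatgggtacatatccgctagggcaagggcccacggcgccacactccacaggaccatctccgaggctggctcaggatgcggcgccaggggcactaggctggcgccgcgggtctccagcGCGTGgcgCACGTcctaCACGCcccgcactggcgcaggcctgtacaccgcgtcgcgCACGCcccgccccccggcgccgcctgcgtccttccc
Of 26 members with a RefSeq promoter, 24 (92.3%) held a core motif on either strand in at least 1 such window, matches that overlap in CACGTG counted apart, against 68.3% of 4751 genes tested for coverage and 47.4% of all 27305 genes. By single window the shares were 86.8% of 38 for the members and 43.2% of 35116 overall. The match is a description of letters, not of binding. It did not separate the members that rose from those that did not, since ENO2, GBE1, WSB1 and PLIN2 also held it and only SLC2A1 and EGLN3 had none in these windows. HILPDA, NDRG1, SLC2A3, VEGFA and ZNF395 had no entry.

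In glucose import, SLC2A1 (GLUT1), the glucose transporter of many tumour cells and a textbook target of the factor (chr1:42925375-42959176, minus strand, GRCh38), fell in CoCl2 cells as measured. It had 2441 and 2805 TMM-scaled covering reads in CoCl2 cells, against 4484 and 3314 in NT cells. Both CoCl2 libraries lay below both NT libraries, and the change was -0.56 ± 0.20 (log2, SE), adjusted p = 0.0222. With the length trend removed from this 3670-base transcript it was -0.02 ± 0.12, adjusted p = 0.923. SLC2A3 (GLUT3), a transporter whose reads can be shared with its near copy SLC2A14, had 26.9 and 19.8 in CoCl2 cells, against 32.6 and 24.5 in NT cells, and its groups overlapped.

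Further along glycolysis, PFKFB3, an enzyme that makes the sugar phosphate that activates phosphofructokinase, had 50.8 and 46.1 TMM-scaled covering reads in CoCl2 cells, against 38.2 and 35.9 in NT cells. The groups did not overlap, the measured change was 0.38 ± 0.31 (log2, SE), adjusted p = 0.315, and the change with the trend removed from its 2 compared isoforms was 0.89 ± 0.25, adjusted p = 0.0406. Its relative PFKFB4 had 7.25 and 14.3 in CoCl2 cells, against 15.8 and 9.44 in NT cells, with overlap. ENO2, the enolase first known from neurons, had 158 and 175 in CoCl2 cells, against 159 and 148 in NT cells. CoCl2 replicate 1 and NT replicate 1 were nearly equal in ENO2, and the change of 0.11 ± 0.24 (log2, SE), adjusted p = 0.711, did not pass. GBE1, the glycogen branching enzyme, had 36.3 and 41.7 in CoCl2 cells, against 86.6 and 39.7 in NT cells. NT replicate 1 alone stood high in GBE1, and the change of -0.58 ± 0.33 (log2, SE), adjusted p = 0.144, also did not pass. AK4, an adenylate kinase of the mitochondrial matrix with the longest transcripts among the 18 (6857 bases on average), had 78.8 and 61.5 in CoCl2 cells, against 62.4 and 77.4 in NT cells. Its measured change was 0.00 ± 0.28 (log2, SE), adjusted p = 0.995, and 0.48 ± 0.26, adjusted p = 0.245 with the trend removed.

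**Figure D3:**
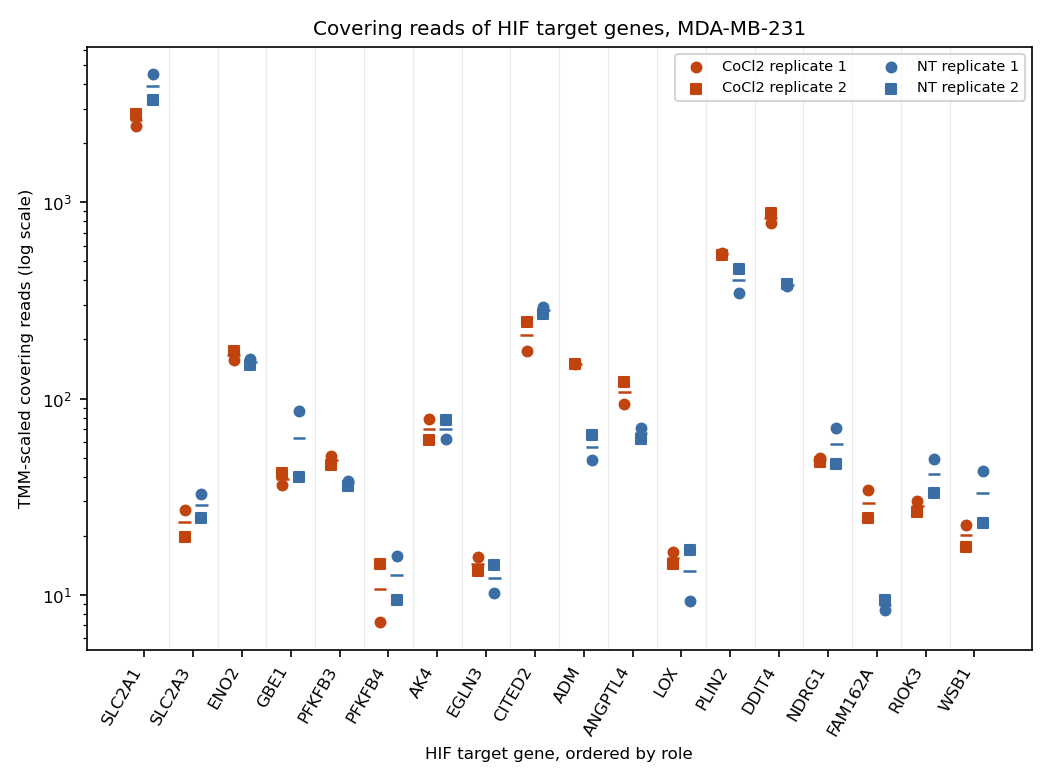
TMM-scaled covering reads (log axis) of the 18 tested HIF targets in each MDA-MB-231 library, ordered by role, with CoCl2 libraries in red, NT libraries in blue and a bar at each group mean. ADM, DDIT4, FAM162A, ANGPTL4, PFKFB3 and PLIN2 have both CoCl2 points above both NT points.

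The 2 tested members that feed back on the pathway did not pass in either fit. CITED2, which competes with the factor for the coactivators CBP and p300, had 174 and 246 TMM-scaled covering reads in CoCl2 cells, against 293 and 269 in NT cells. Both CoCl2 libraries lay below both NT libraries of CITED2, with a change of -0.44 ± 0.23 (log2, SE), adjusted p = 0.114, and -0.38 ± 0.19, adjusted p = 0.195 with the trend removed. EGLN3, a prolyl hydroxylase that acts on the alpha subunit, had 15.5 and 13.2 in CoCl2 cells, against 10.2 and 14.2 in NT cells, with overlap between the groups.

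PLIN2, a coat protein of lipid droplets, had 554 and 536 TMM-scaled covering reads in CoCl2 cells, against 343 and 456 in NT cells. The groups did not overlap, but the change of 0.46 ± 0.21 (log2, SE), adjusted p = 0.0737, did not pass, and was 0.17 ± 0.15, adjusted p = 0.47 with the trend removed. RIOK3, an atypical kinase, had 30.1 and 26.4 in CoCl2 cells, against 49.3 and 33 in NT cells, and WSB1, a substrate receptor of a ubiquitin ligase, had 22.8 and 17.6 in CoCl2 cells, against 42.8 and 23.1 in NT cells. Both were lower in both CoCl2 libraries without passing, with adjusted p of 0.217 and 0.175 by limma. In all, 6 of 18 members had both CoCl2 libraries above both NT libraries, against 39.5% of all genes, and 4 had both below, against 38.4%.

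Edits per covering read, used here as the measure of ribosome association per mRNA, did not pass for any HIF target. The free deaminase was expressed in HEK293T only, so in MDA-MB-231 edits made without ribosomes cannot be told apart. The files list no position in all 4 MDA-MB-231 libraries, so every value of edited reads and of edits per read rests on positions listed in at most 3 of them. How positions were selected is not given in the sources used here, and any removal of positions edited in every library would take the most reproducible edits out of these values. By limma on the log2 odds of an edit, 0 of 18 members and 0 of 5681 genes (0%) passed in either direction, and at an unadjusted p under 0.05 there were 0 members beside 421 genes higher and 65 lower. The median change was 0.04 over the members, 11 of them positive, and 0.20 over all genes. When only positions with at least 20 covering reads were used, 0.386% of genes passed as higher and 1.51% as lower. Of 15 members 0 passed, and 1 was higher at an unadjusted p under 0.05, beside 363 genes higher and 290 lower of 5447. The filter worked library by library while coverage was kept whole, so a gene thinly covered in 1 condition could lose its edits there. FAM162A, with a median of 9 and 10 covering reads at its listed positions in NT cells, was open to this. Nothing is read from these calls.

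**Figure D4:**
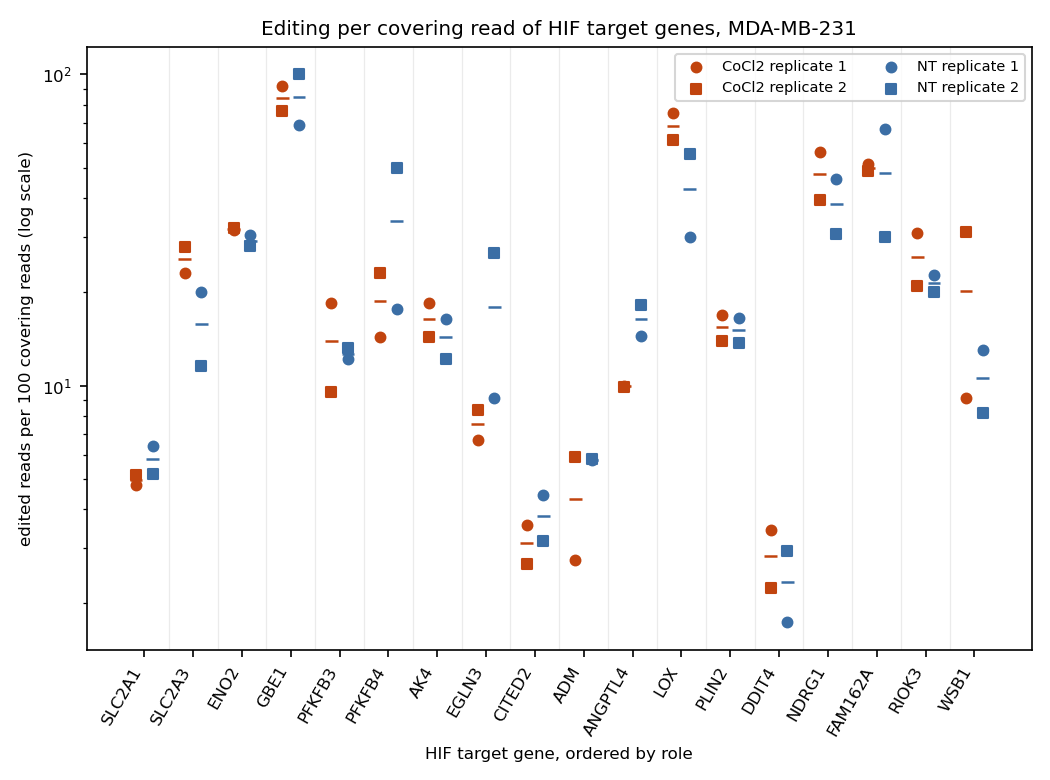
Edited reads per 100 covering reads (log axis), summed over positions, of the 18 tested HIF targets in each MDA-MB-231 library, with CoCl2 in red, NT in blue and a bar at each group mean. The members span from about 1.74 in DDIT4 to 100 in GBE1, and most groups overlap.

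The 3 genes whose coverage rose in both fits did not pass in edits per covering read. FAM162A had 51.5 and 48.9 in CoCl2 cells, against 66.7 and 30 in NT cells (edited reads per 100 covering reads), and the NT libraries bracketed the CoCl2 libraries. DDIT4 had 3.43 and 2.23 in CoCl2 cells, against 1.74 and 2.94 in NT cells, again with overlap. ADM had 2.76 and 5.88 in CoCl2 cells, against 5.77 and 5.8 in NT cells, where CoCl2 replicate 1 alone stood low, on 4 edited reads. The changes were 0.05 ± 0.59 (log2 of the odds, SE), adjusted p = 0.981 for FAM162A, 0.24 ± 0.29, adjusted p = 0.838 for DDIT4, and -0.59 ± 0.37, adjusted p = 0.664 for ADM.

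In edits per read, 3 members had both CoCl2 libraries below both NT libraries, against 9.63% of all genes. In edited reads per 100 covering reads ANGPTL4 had 10 and 9.91 in CoCl2 cells, against 14.5 and 18.2 in NT cells, a change of -0.70 ± 0.31 (log2 of the odds, SE), adjusted p = 0.576. SLC2A1 had 4.8 and 5.17 in CoCl2 cells, against 6.41 and 5.19 in NT cells, where CoCl2 replicate 2 and NT replicate 2 nearly met. EGLN3 had 6.67 and 8.33 in CoCl2 cells, against 9.09 and 26.7 in NT cells, on 1 to 4 edited reads in a library. The opposite order was seen in ENO2, LOX and SLC2A3, against 30.1% of all genes. ENO2 had 31.6 and 32.1 in CoCl2 cells, against 30.4 and 28 in NT cells, a narrow gap, while LOX had 75 and 61.5 in CoCl2 cells, against 30 and 55.6 in NT cells and SLC2A3 23.1 and 27.8 in CoCl2 cells, against 20 and 11.5 in NT cells. No one of these 6 passed the test.

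Per length of coding sequence the members differed widely from each other. In edited reads per 100 covering reads per kilobase of coding sequence, the median of 5638 genes was 17.5. FAM162A had 108 in CoCl2 cells and 104 in NT cells, the percentile 99.8 of genes. Its NT mean joins unlike libraries, with 66.7 and 30 edited reads per 100 covering reads, on 6 and 3 edited reads. LOX, GBE1 and NDRG1 followed at the percentiles 93.9, 91.4 and 89. At the low end SLC2A1 had 3.37 in CoCl2 cells and 3.92 in NT cells, and DDIT4 had 4.05 in CoCl2 cells and 3.35 in NT cells, the percentiles 1.37 and 1.42. CITED2 stood at the percentile 1.99. Across genes this density and coverage had a Spearman's rho of -0.22, over values that share their covering reads.

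Edited reads per gene, scaled by relative depth, combine both measures. Of 10 members with at least 10 edited reads in 2 libraries, 0 passed by limma, against 12% of genes higher and 2.9% lower among 4103. At an unadjusted p under 0.05 there were 2 members higher and 1 lower, beside 1057 genes higher and 482 lower. FAM162A had 17 and 11 edited reads in CoCl2 cells, against 6 and 3 in NT cells. It met the minimum through its CoCl2 libraries alone and was 1 of the 2 members higher, so no change or p is given for it. DDIT4 had 26 and 18 edited reads in CoCl2 cells, against 7 and 12 in NT cells, a change of 1.29 ± 0.48 (log2, SE), adjusted p = 0.0754. SLC2A1 had 113 and 132 edited reads in CoCl2 cells, against 309 and 182 in NT cells, with -0.80 ± 0.31, adjusted p = 0.0865. The groups did not overlap in DDIT4 or SLC2A1, but the share of all genes without overlap in edited reads was not taken, so nothing is read from it. Both followed the direction of their coverage, which edited reads contain. Without NT replicate 2, which leaves 1 NT library, the median change in edited reads over all genes was 0.23 (log2), against 0.19 with every library.

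The edited positions themselves are shown for the 5 members with the most edited reads at their leading position among those whose sequence was read, since they display where the editor acted. Each is 21 bases of the coding strand from the GENCODE 29 transcript, with the edited C in capitals, and the GRCh38 coordinate is that of the C.
SLC2A1: tgtggagcaaCtgtgtggtcc
PLIN2: gccaaggattCtgtggccagc
ENO2: gcaagagaaaCtggacaacct
FAM162A: attgccctgaCggtggtagga
GBE1: acagcactgaCtttttttctg
The SLC2A1 site (chr1:42927238, minus strand, beside an exon junction) is base 1282 of 1479 coding bases, and its change would be synonymous. It was edited in 2 of 2360 and 2 of 2560 reads in CoCl2 cells, against 10 of 4822 reads in NT replicate 1, and was not listed in NT replicate 2. The PLIN2 site (chr9:19121089, minus strand) lay at base 386 of 1314 and was edited in 4 of 500 and 3 of 455 reads in CoCl2 cells, against 3 of 468 in NT replicate 2. The ENO2 site (chr12:6917065, plus strand) lay at base 268 of 1305 and was edited in 2 of 152 reads in CoCl2 replicate 1, against 4 of 171 and 3 of 157 in NT cells. These counts are small in every library, and no single site of these 3 genes carried the difference in its gene. FAM162A (chr3:122407349, plus strand, base 332 of 465) had 4 of 33 and 2 of 23 reads edited in CoCl2 cells, against 1 of 9 in NT replicate 1. GBE1 (chr3:81499158, minus strand, base 2004 of 2109) had 2 of 55 in CoCl2 replicate 1, against 2 of 106 and 1 of 68 in NT cells. In PLIN2 and FAM162A the change would alter the amino acid.

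Over all genes 39893 positions were listed in 3 MDA-MB-231 libraries, the most for any position. Members had 1033 matched pairs of position and isoform, where a position read in several isoforms counts once for each. By distinct position SLC2A1 had 244, PLIN2 123, GBE1 99 and ENO2 96, while ADM had 17. The median place of the member pairs was at 0.52 of the coding sequence, against 0.51 for all genes. Of these pairs 5.42% would create a stop codon, against 6.01% of all C in the members' coding sequences.

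**Figure D5:**
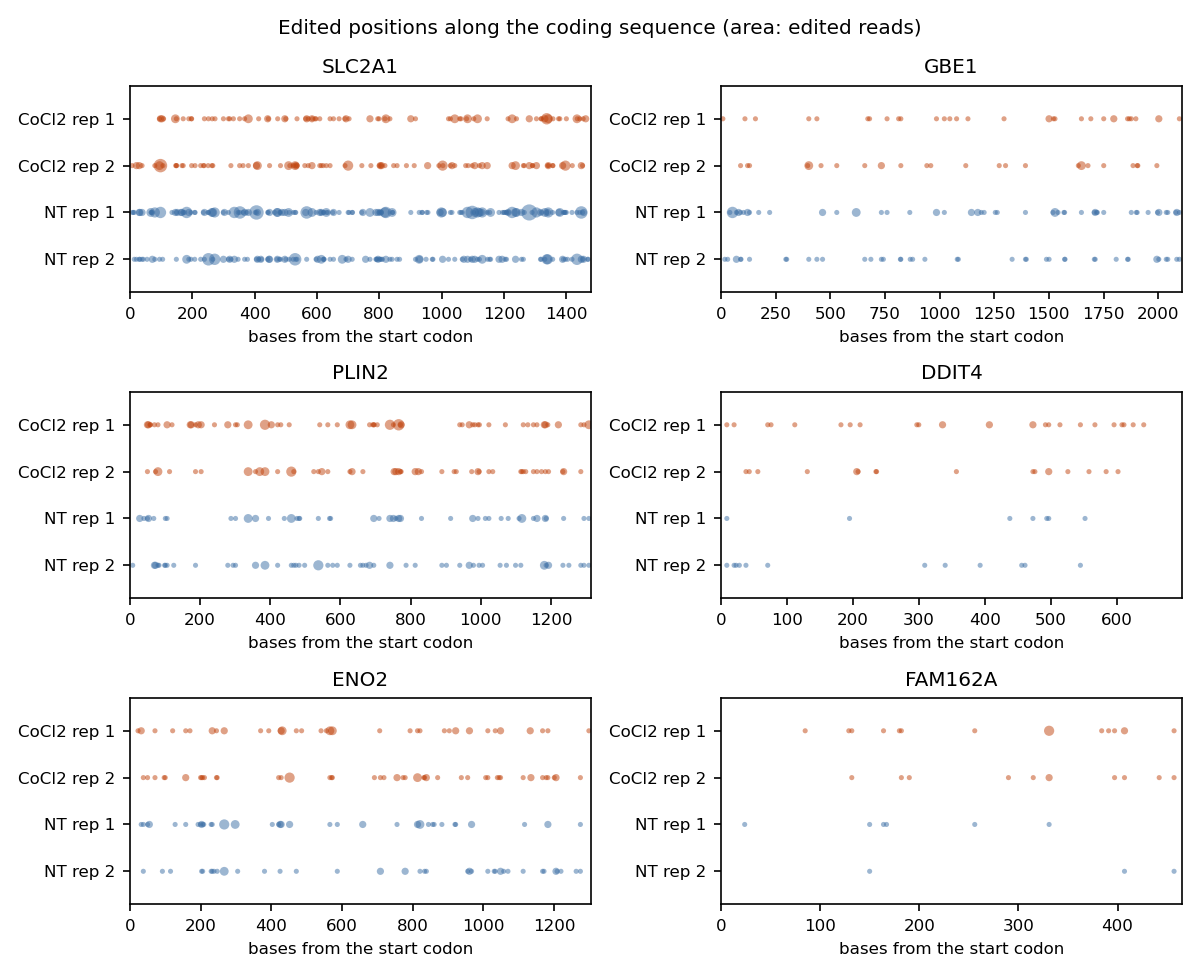
Edited positions of 6 HIF targets by distance in bases from the start codon (horizontal axis) in each MDA-MB-231 library, with dot area proportional to edited reads. Positions run along the whole coding sequence in both conditions, and SLC2A1 has the most in NT replicate 1 (156 positions).

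APOBEC1 is known to prefer a C that follows A or T, and most members showed that base. Without SLC2A1, 82.6% of 789 member pairs of position and isoform had A or T before the edited C. The share was 42.2% of the C in the members' coding sequences and 77.5% of such pairs over all genes. In SLC2A1 76 of 244 did (31.1%), against 39.5% of the C in its own coding sequence, and in DDIT4 23 of 48 did (47.9%), against 33.2% of its own. These were the lowest shares among the members with a matched position. The share in SLC2A1 was 12.5% of 104 positions listed in 1 library, 30.4% of 79 in 2 libraries and 63.9% of 61 in 3 libraries. Over all genes it was 73%, 86.7% and 92% in 1, 2 and 3 libraries. Split by coverage instead, the share over all genes ran from 87.9% on isoforms under 50 covering reads to 32.2% on those with 1000 or more. The files hold no measure that tells a sequencing error from an edit, so on highly covered isoforms such as that of SLC2A1 the edited reads and edits per read given above may include errors, and the part of errors or of coverage in the values of SLC2A1 and DDIT4 was not tested.

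The 13 members without a coverage test had few reads or were listed unevenly. HILPDA, a lipid droplet protein that inhibits a triglyceride lipase, was listed only in CoCl2 cells, with 46 and 30 covering reads and 1 and 2 edited reads. ANKRD37, an ankyrin repeat protein, was listed only in CoCl2 replicate 1, on 7 reads. CA9, the membrane carbonic anhydrase of hypoxic tumours, had 4 and 7 covering reads in CoCl2 cells, against 1 in NT replicate 1. BHLHE40, a transcriptional repressor, was listed only in NT cells, on 13 and 17 reads. Since 1 edit decides whether such a gene is listed, neither a difference in level nor its absence can be read from these patterns. CA12, another membrane carbonic anhydrase, had 7 and 3 reads in CoCl2 cells, against 15 and 1 in NT cells. PDK1, the kinase that keeps pyruvate out of mitochondria, had 9 and 10 reads in CoCl2 cells, against 7 in NT replicate 2. ERO1A, the oxidase of disulfide formation, was listed in 1 library of each condition, with 15 reads in CoCl2 replicate 1 and 9 in NT replicate 1. INSIG2, which holds back sterol synthesis, had 25 in CoCl2 replicate 2 and 36 in NT replicate 2. MXI1, a MYC antagonist, and VLDLR, a lipoprotein receptor, were each listed in a single NT library on 3 and 2 reads, and STC2, a secreted glycoprotein, in HEK293T only.

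In HEK293T, which saw no CoCl2, the members had more listed edits with the ribosome fusion, as did genes at large. Ribo-STAMP cells had 57, 43 and 73 edited reads over all listed members, against 6, 5 and 7 in APOBEC1-only cells, a ratio of sums of 9.61. Over all genes the libraries held 65792, 50908 and 59227 edited reads in Ribo-STAMP cells, against 3498, 3173 and 2971 in APOBEC1-only cells, a ratio of 18.2. No member had 10 edited reads in 3 libraries, the minimum of the main test, in which 99.7% of 654 genes were higher and 0.153% lower. With so few edited reads in APOBEC1-only cells, genes could reach that minimum through Ribo-STAMP cells alone. Nothing is read from these shares. RIOK3 had 12, 5 and 17 edited reads in Ribo-STAMP cells, against 0, 0 and 0 in APOBEC1-only cells, and GBE1 had 13, 6 and 14 edited reads in Ribo-STAMP cells, against 0, 0 and 0 in APOBEC1-only cells. AK4, PDK1 and NDRG1 were also listed in all Ribo-STAMP libraries and no APOBEC1-only library. With no minimum and unlisted genes set to 0, 32.4% of 7004 genes and these 5 of 19 members passed as higher by limma. Nothing is read from that count, and no p or fold is given for these members, since they entered through Ribo-STAMP cells alone and a 0 here means only that no edit was listed.

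SLC2A1 and DDIT4, the members with the lowest share of A or T before their edits in MDA-MB-231, also had edits listed in every library with the free deaminase. SLC2A1 had 0, 9 and 5 edited reads in Ribo-STAMP cells, against 1, 1 and 3 in APOBEC1-only cells. DDIT4 had 0, 0 and 5 edited reads in Ribo-STAMP cells, against 2, 1 and 3 in APOBEC1-only cells. WSB1, with 1, 1 and 1 edited reads in Ribo-STAMP cells, against 1, 1 and 0 in APOBEC1-only cells, was the third member listed in 2 or more APOBEC1-only libraries. The groups overlapped in all 3.

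The wider pathway was followed through fixed lists. Of 21 genes of the HIF machinery, 13 were tested for coverage, and 4 rose and 4 fell, against 25.7% and 19.1% of all genes, and 1 rose and 2 fell with the length trend removed, against 8.33% and 6.21%. HIF1A, the alpha subunit, had 64.3 and 96.1 TMM-scaled covering reads in CoCl2 cells, against 212 and 146 in NT cells, and fell by 1.16 (log2), adjusted p = 0.00158, but by 0.62 with the trend removed, adjusted p = 0.0857. HSP90AA1 and HSP90AB1, chaperones of the alpha subunit, and CUL2, the scaffold of the VHL ligase, fell by 1.08, 1.11 and 1.10, and HSP90AA1 and HSP90AB1 also passed with the trend removed. ELOB and RBX1, subunits of the same ligase, RACK1 and the prolyl hydroxylase EGLN2 rose by 1.04, 0.81, 0.84 and 0.71. Only EGLN2 of these 4 passed with the trend removed (0.54, adjusted p = 0.0287).

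A further list holds genes known from hypoxia that are not members. Of 38 tested, 15 rose and 4 fell as measured, against 25.7% and 19.1% of all genes. With the length trend removed 14 rose and 1 fell, against 8.33% and 6.21% of all genes. BNIP3, a receptor for the removal of mitochondria, rose by 1.58 as measured and 1.96 with the trend removed. GAPDH and ALDOA, enzymes of glycolysis, rose by 1.49 and 1.12 and by 1.30 and 0.62, and MIF, a secreted cytokine, by 1.49 and 0.60. NARF rose by 2.03 with the trend removed. IGFBP3, a carrier of insulin-like growth factors, fell by 1.14 as measured and fell by 1.04 with the trend removed. GYS1, TPD52 and HK1 fell by 0.96, 0.67 and 0.66 as measured and did not pass with the trend removed. The median with the trend removed was 0.40 (log2) over the 38 and 0.29 over the 18 HIF targets. Edits per covering read passed for 0 genes of either list by limma.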

How the data were processed

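Polyadenylated RNA was sequenced on PacBio instruments, and per the labels' protocols the kits differed between the lines. The authors deposited 1 headerless file for each library, where a cell pairs 2 whole-number counts, read from the values as edited reads and covering reads at a coding position of an isoform. Aligner, edit caller and strand use: not given in the sources used here. Per the submitters' processing notes the builds were hg19 and hg38, and GRCh38 (GENCODE 29) coordinates and sequences were used for MDA-MB-231 only. The members and gene lists were chosen with earlier results of these data known.

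Coverage was scaled by TMM (trims of 30 and 5%) and tested as log2(value + 1) with limma 3.58.1 (R 4.3.3) and an intensity trend, two-sided, adjusted over all genes. Editing per read was the log2 ratio of edited to unedited reads, each with 0.5 added, over the union of an isoform's listed positions. Edited reads per gene were divided by relative depth and tested as log2(value + 1), which shrinks changes at low values. No count model was used, since 1 cell holds both numbers. The length trend was a lowess curve (span 0.3) taken from each library. The fits were checked on simulated data. Every member is accounted for by role, and from other lists the genes named are at most the 5 with the largest change in each direction past the threshold. Alternatives covered scaling, filters, pseudocounts, a replicate block and each library left out. Depth on unlisted isoforms is unknown.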

Additional observations from a re-analysis of the deposited data

How the results depend on the processing

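Counts of calls are given as higher and lower in CoCl2 cells, members before all genes. For coverage, 4 and 1 members and 1461 and 1084 genes passed, and they became 3 and 0 members with the replicate block, 3 and 2 members and 943 and 1653 genes when scaled by total covering reads, 2 and 0 members and 833 and 219 genes with isoforms listed in any library, and 4 and 0 members and 470 and 350 genes with the length trend removed. At an unadjusted p under 0.05 by limma, the replicate block gave 4 and 1 members and 1604 and 1329 genes. Without the block there were 5 and 1 members and 1680 and 1379 genes. Median-of-ratios scaling, limma-voom, a pseudocount of 5 and no filter on coverage each kept 4 and 1 members. Leaving out 1 library in turn gave 0 to 5 members higher and 0 to 5 lower, and 0 to 2013 genes higher and 10 to 1773 lower, with the fewest whenever a CoCl2 library was left out. With the length trend removed and 1 library left out, the values chosen after seeing the data were 0 and 0 members and 42 and 26 genes without CoCl2 replicate 1, 1 and 0 members and 116 and 70 genes without CoCl2 replicate 2, 3 and 0 members and 519 and 287 genes without NT replicate 1, and 7 and 1 members without NT replicate 2. The 7 and 1 members are given without a share of all genes, so nothing is read from them. The replicate block with the trend removed gave 4 and 0 members and 475 and 381 genes. Of the 5 members called in coverage, 1 changed sign under an alternative, SLC2A1, at 0.10 (log2) with the trend removed and without CoCl2 replicate 1. Of the 13 not called, 9 changed sign under at least 1 alternative, among them NDRG1, SLC2A3, PFKFB4 and RIOK3, negative as measured and positive with the trend removed. In edits per read no member passed under any alternative run, and positions with at least 20 covering reads gave 21 and 82 genes. Nothing is read from those 21 and 82, since that filter can remove a gene's edits from 1 condition alone. For edited reads, 0 and 0 of 10 members and 494 and 119 genes passed, against 1 member (DDIT4, higher) and 788 and 306 genes with the replicate block, 209 genes lower with a pseudocount of 5, 0 and 0 genes with no filter (1113 and 661 at an unadjusted p under 0.05), 311 and 202 with TMM on edited reads, 145 and 65 by edited positions and 101 and 62 with the length trend removed. Left-out libraries gave 0 to 1 members higher, 0 to 2 lower, and 0 to 1090 genes higher and 2 to 579 lower. Genes could enter the HEK293T fits through Ribo-STAMP cells alone. In HEK293T, 652 genes were higher and 1 lower in Ribo-STAMP cells, with 0 lower at a pseudocount of 5, 5 members and 2267 genes higher and 0 lower with no filter, where an unlisted gene is set to 0, 338 higher with TMM on edited reads, and 0 to 1 lower with a library left out. The cause of these shifts was not tested, apart from the fewer samples or genes that an alternative leaves.

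Replicate numbers were not shown to pair the libraries. Same-numbered libraries deviated together with a correlation across genes of 0.02 in MDA-MB-231 coverage, and of 0.09, 0.12 and 0.33 in HEK293T, where only number 3 correlated best with its own. In the paired fit of coverage, SLC2A1 had an adjusted p of 0.0723 and ANGPTL4 one of 0.0506.

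Thinly covered members had the larger standard errors in coverage, 0.52 (log2) for PFKFB4, 0.47 for EGLN3 and LOX, 0.44 for FAM162A, which rests on 9 and 10 reads in NT cells, and 0.38 for WSB1, against 0.20 for SLC2A1. Members listed in some libraries only have no comparison, and no library without an editor was analysed here.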

Other observations

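Targets of ATF4, a factor of the amino acid and stress response, overlap the HIF targets in DDIT4, STC2, VLDLR and VEGFA. Of 29 listed genes 15 were tested for coverage, and 3 rose and 4 fell, or 3 and 2 with the length trend removed, against 25.7% and 19.1% of all genes as measured and 8.33% and 6.21% with the trend removed. Beside DDIT4, PYCR1, an enzyme of proline synthesis, rose by 0.86 (log2) and TRIB3, a pseudokinase, by 0.61. ALDH18A1, another enzyme of proline synthesis, fell by 1.37, AARS1 and GARS1, which charge transfer RNA, fell by 0.89 and fell by 0.65, and PSAT1, of serine synthesis, fell by 0.81. With the trend removed PYCR1 (0.48, adjusted p = 0.0579), AARS1 (-0.36, adjusted p = 0.278) and GARS1 (-0.39, adjusted p = 0.101) no longer passed, and the amino acid transporter SLC7A5 did (0.81, adjusted p = 0.016).

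Of 18 tested genes of the oxidative and metal response, 10 rose and 3 fell as measured, against 25.7% and 19.1% of all genes, and 3 rose and 1 fell with the length trend removed, against 8.33% and 6.21%. MT1X, a metallothionein, rose by 1.32, FTL and FTH1, the ferritin chains, by 1.31 and 1.13, and PRDX1, a peroxidase, by 1.09. With the trend removed MT1X stood at 0.41 (adjusted p = 0.229), FTH1 at 0.31 (adjusted p = 0.134) and PRDX1 at 0.21 (adjusted p = 0.279), while FTL passed at 0.41. NQO1, a quinone reductase, rose by 0.88 and by 1.24 with the trend removed. SLC39A14, a zinc and iron importer, fell by 1.42 and fell by 0.92 with the trend removed. Edits per covering read passed for 0 genes of these lists by limma.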
